A study of Rattus norvegicus with 44 samples.

Results

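Trunk blood of rats 1 day after environmentally-induced hyperthermia (EIH), in which the animals are made hyperthermic by a hot environment, was compared with trunk blood of saline rats at 1 day. The arrays were chosen by their source and treatment labels, 4 arrays of EIH blood and 4 of saline blood, out of 44 arrays in the series, of which 24 carry blood. All rats were male Sprague-Dawley of the NCTR strain, 3 months old, and each blood array carries RNA of 1 rat, collected at decapitation. Other blood arrays used here for reference are EIH and saline at 3 h, and rats given neurotoxic doses of amphetamine (AMPH) at 1 day. Each is a group of 4. AMPH blood at 3 h, also a group of 4, entered the fit that estimates the spread. Body temperatures were not analysed here. The stated purpose of the blood arrays was to follow immune responses to hyperthermia and to amphetamine. A tissue tag on the blood samples mentions striatum, a brain region, whereas the treatment protocol describes trunk blood. On these 8 arrays the 13 brain genes with a value on every blood array had a mean log2 level of 6.18 to 6.59 in EIH blood and 6.51 to 6.71 in saline blood, against 11.58 to 11.99 in EIH blood and 11.51 to 12.05 in saline blood for the 40 erythroid genes so measured.

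The values are log2 of the deposited fluorescence intensities, so a difference of 1 is a doubling. Differences are given as EIH minus saline with the standard error of a limma fit over the 24 blood arrays. A gene is called here when its Benjamini-Hochberg adjusted p over all genes tested is under 0.05. Array medians lay between 165 and 170 intensity units in EIH blood and between 165 and 171 in saline blood. Saline replicate 4 stood apart. It had blanks for 17.08% of probes, against 7.12% to 9.74% on the 4 EIH arrays and 7.89% to 9.62% on the other saline arrays. Its correlation with the other 7 arrays had a median of 0.844, against 0.917 to 0.928 for EIH arrays and 0.908 to 0.928 for the other saline arrays. Its 8777 gene values fell on 891 distinct numbers, against 1347 to 1767 in EIH blood and 1310 to 1601 on the other saline arrays, so that many dim genes share a value on it. Results are therefore also given without this array. In addition, saline replicate 1 and EIH replicate 3 carry rat numbers that the labels also list in a choroid plexus pool of 3 h. EIH replicates 1, 2 and 3 carry rat numbers also listed in choroid plexus pools of 1 day. The titles of those pools say control and their source labels say EIH. Which labels are right is unknown. P-values measure only the spread between arrays of the same group, estimated over all 24 blood arrays.

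Heat unfolds proteins and activates heat shock factor 1, a transcription factor that binds heat shock elements in the promoters of chaperone genes. The chaperones then work in linked machines. Hsp70 proteins fold clients with the help of Hsp40 (DnaJ) partners and of Hsp110 proteins, which exchange nucleotide, and clients pass to Hsp90 through bridging cochaperones. In most cells this response is transient once the temperature is normal again. In whole blood the RNA comes from reticulocytes, platelets and leukocytes, and fewer cells of a type and less RNA per cell cannot be told apart in such samples.

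One day after hyperthermia, chaperone genes were the most clearly raised transcripts in blood. Of 9762 genes tested, 5 were called, 4 of them higher in EIH blood (0.041% of genes tested) and 1 lower (0.0102%). The 4 higher genes all encode chaperones or their partners, namely Dnajb1, Hsph1, Hsp90aa1 and Dnaja4, and the lower gene was Ap2a1. With the arrays set to the same median the split was 4 higher and 4 lower, and at the same 75th percentile 5 higher and 4 lower. After quantile normalization it was 6 higher and 4 lower. Of the higher calls, 3, 4 and 4 in that order were on the chaperone list, so not all of them were chaperones there. The promoters of 3 of the 4 chaperone genes are shown because heat shock factor 1 is known, as background, to act through sites in such windows. The sequences are RefSeq's for assembly GRCr8, 250 bases before to 50 bases after the start of the gene, written 5′ to 3′ on the gene's strand. Capitals mark GAANNTTC, the paired core of a heat shock element, which reads the same on both strands. Dnajb1 lies at chr19:41431092-41431391 on the minus strand, Hsph1 at chr12:10427118-10427417 on the plus strand and Dnaja4 at chr8:63981337-63981636 on the plus strand.
Dnajb1: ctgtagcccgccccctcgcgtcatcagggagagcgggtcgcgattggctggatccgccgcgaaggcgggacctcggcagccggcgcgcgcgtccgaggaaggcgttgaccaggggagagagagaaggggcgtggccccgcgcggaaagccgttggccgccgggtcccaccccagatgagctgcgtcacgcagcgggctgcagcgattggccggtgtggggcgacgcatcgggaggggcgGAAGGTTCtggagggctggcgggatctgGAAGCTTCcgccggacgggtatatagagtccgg
Hsph1: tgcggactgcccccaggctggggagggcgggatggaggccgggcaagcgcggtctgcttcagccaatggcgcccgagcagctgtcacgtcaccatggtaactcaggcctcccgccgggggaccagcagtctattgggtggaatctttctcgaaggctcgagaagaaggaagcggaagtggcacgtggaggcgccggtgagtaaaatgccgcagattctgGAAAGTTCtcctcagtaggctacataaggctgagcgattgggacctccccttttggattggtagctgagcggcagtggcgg
Dnaja4: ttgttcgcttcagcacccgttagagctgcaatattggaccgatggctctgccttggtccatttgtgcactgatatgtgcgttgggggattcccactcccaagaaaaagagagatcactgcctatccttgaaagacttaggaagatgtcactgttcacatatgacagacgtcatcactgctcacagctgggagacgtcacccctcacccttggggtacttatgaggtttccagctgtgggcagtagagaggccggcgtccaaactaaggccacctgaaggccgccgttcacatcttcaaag
Dnajb1 holds 2 such cores, Hsph1 1 and Dnaja4 0. Of all 33469 promoters in that table, 8.59% hold at least 1 core, and 5.99% of the 8008 that matched a gene tested here do. Of the heat shock and chaperone list, 32 of 39 genes matched a promoter and 16 of these hold a core. Hsp90aa1 has no entry in the table. A match is a description of the letters in the window and not a measured binding site.

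Dnajb1, an inducible Hsp40 that hands unfolded proteins to Hsp70, had log2 values of 12.48, 12.34, 12.08 and 11.97 in EIH blood, against 9.88, 10.002, 9.46 and 8.79 in saline blood. Every EIH array lay above every saline array. The difference was 2.68 ± 0.44, a 6.42-fold rise (95% interval 3.4 to 12.1, adjusted p = 0.0263, limma). A second probe of the gene gave 2.82 ± 0.52 (SE).
Hsph1, the Hsp110 nucleotide exchange factor of Hsp70, had values of 10.98, 10.27, 10.64 and 10.81 in EIH blood, against 6.87, 8.42, 6.89 and 6.03 in saline blood. Its difference was 3.62 ± 0.61, or 12.3-fold (95% interval 5.09 to 29.7, adjusted p = 0.0263, limma). The saline values are dim, below those of most genes on saline replicates 1, 3 and 4, where 96, 102 and 448 genes hold exactly the same number as Hsph1, so the size of the fold is uncertain.
Hsp90aa1, the inducible cytosolic Hsp90, had values of 14.39, 13.81, 13.90 and 13.80 in EIH blood, against 10.43, 11.82, 10.53 and 9.89 in saline blood. It rose by 3.31 ± 0.59, or 9.9-fold (95% interval 4.24 to 23.1, adjusted p = 0.0311, limma). Among saline arrays, replicate 2 was the highest for both Hsph1 and Hsp90aa1, and it still lay below every EIH array.
Dnaja4, another Hsp40, had values of 10.002, 10.01, 10.26 and 10.23 in EIH blood, against 8.63, 9.27, 9.07 and 8.79 in saline blood. Its rise was smaller and tighter, 1.19 ± 0.21 or 2.28-fold (95% interval 1.68 to 3.08, adjusted p = 0.0311, limma), and the 4 EIH arrays spanned only 10.002 to 10.26. On saline replicate 4 Dnaja4 and Dnajb1 held the same number, 8.79, which 104 genes held on that array.

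**Figure D1:**
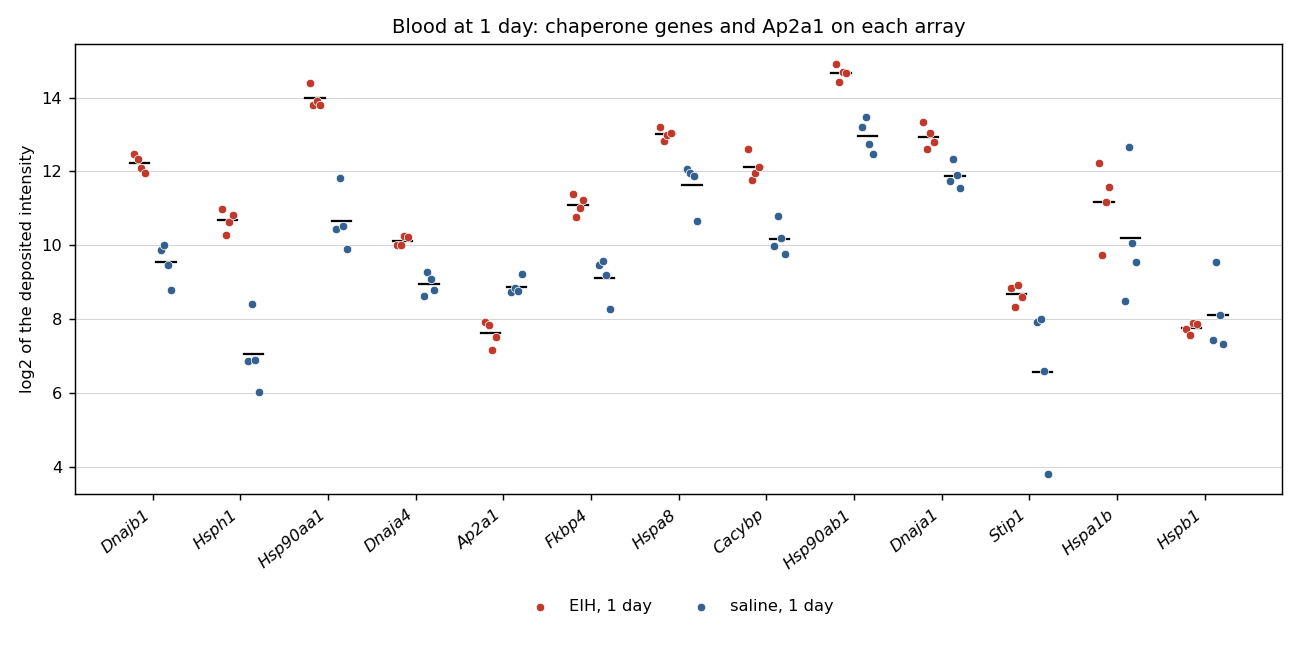
Log2 of the deposited intensity of 12 genes of the heat shock and chaperone list and Ap2a1 on each of the 4 EIH and 4 saline blood arrays of 1 day. Points are arrays and bars are group means. The EIH points of Dnajb1, Hsph1, Hsp90aa1 and Dnaja4 all lie above the saline points, those of Ap2a1 all lie below, and those of Hspa1b and Hspb1 overlap.

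Ap2a1 encodes an alpha subunit of the AP-2 adaptor, which gathers cargo into clathrin-coated pits at the cell surface. Its values were 7.93, 7.84, 7.17 and 7.52 in EIH blood, against 8.73, 8.83, 8.75 and 9.21 in saline blood. All EIH arrays lay below all saline arrays. It fell by 1.26 ± 0.20 (SE, adjusted p = 0.0263, limma), to 0.417 of the saline level (95% interval 0.313 to 0.554). On the EIH arrays 44, 71, 82 and 49 genes held exactly the number of Ap2a1, and 64 on saline replicate 4. The size of its fall is therefore uncertain.
These 5 calls rest on the full set of arrays and on a spread estimated over all 24 blood arrays. A limma fit over the 8 arrays compared called 0 genes, as did a plain equal-variance test per gene. Over all arrays 987 genes had an unadjusted p under 0.05, 530 higher and 457 lower. Without saline replicate 4, 0 of 9569 genes were called (0% in either direction), with a smallest adjusted p of 0.114 in limma, and 629 genes had an unadjusted p under 0.05, 256 higher (2.68%) and 373 lower (3.9%), so that the balance of directions turned with that array. The differences themselves moved by less than their standard errors, to 2.43 for Dnajb1 (adjusted p = 0.114), 3.28 for Hsph1 (adjusted p = 0.117), 3.05 for Hsp90aa1 (adjusted p = 0.123), 1.14 for Dnaja4 (adjusted p = 0.117) and -1.15 for Ap2a1 (adjusted p = 0.114), all by limma. Leaving out EIH replicate 3 or 4, or saline replicate 1 or 3, also left 0 calls, leaving out EIH replicate 1 or 2 left 1, and leaving out saline replicate 2 gave 6.

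The heat shock and chaperone list held 39 genes, all tested. Of these 4 were called higher and 0 lower, against 0.041% and 0.0102% of all genes. By unadjusted values, 11 of the 39 genes stood on the higher side at a p under 0.05, against 5.43% of all genes tested, and 0 on the lower side, against 4.68%. In 11 genes all EIH arrays lay above all saline arrays, against 3.81% of all genes tested, and in 0 genes all lay below, against 3.94%. The median difference of the list was 0.48, that of all genes tested 0.067. Without saline replicate 4 the list's median was 0.21 (0.02 over all genes), with 10 genes on the higher side and 1 on the lower at an unadjusted p under 0.05, against 2.68% and 3.9% of all genes in that fit. The mean level of the 34 members with a value on all 24 blood arrays was 10.21, 9.84, 10.13 and 10.10 on the EIH arrays, against 9.23, 9.36 and 8.47 on saline replicates 1, 3 and 4. Saline replicate 2 lay within the EIH range, between EIH replicates 2 and 4, and saline replicate 4 was the lowest of the 8.

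The other members that stood clear of saline mostly belong to the Hsp90 and Hsp70 machines, and none of these members passed the adjusted test. Fkbp4, an immunophilin that binds Hsp90 in steroid receptor complexes, had values of 11.40, 10.76, 11.01 and 11.23 in EIH blood, against 9.46, 9.57, 9.19 and 8.28 in saline blood, a difference of 1.97 ± 0.43 (adjusted p = 0.113, limma). Its other 2 probes gave 1.64 and 1.82.
Hspa8, the constitutive Hsp70 of the cytosol, had 13.19, 12.83, 12.997 and 13.04 in EIH blood, against 12.08, 11.95, 11.86 and 10.67 in saline blood, a difference of 1.38 ± 0.30 (adjusted p = 0.113, limma). Saline replicate 4 was the low point of that group, and the difference without it was 1.05.
Cacybp, calcyclin-binding protein, had 12.60, 11.78, 11.95 and 12.12 in EIH blood, against 9.98, 10.79, 10.20 and 9.76 in saline blood, a difference of 1.93 ± 0.44 (adjusted p = 0.133, limma). Hsp90ab1, the constitutive cytosolic Hsp90, had 14.90, 14.43, 14.70 and 14.67 in EIH blood, against 13.21, 13.46, 12.74 and 12.47 in saline blood, a difference of 1.70 ± 0.46 (adjusted p = 0.229, limma). For all of these genes the lowest EIH array lay above the highest saline array.
Dnaja1, an Hsp40 of the cytosol, differed by 1.06 ± 0.28 and ranged over 12.60 to 13.34 in EIH blood and 11.56 to 12.34 in saline blood. Stip1, which bridges Hsp70 and Hsp90, ranged over 8.34 to 8.92 in EIH blood and 3.81 to 8.01 in saline blood. Its difference of 2.10 ± 0.65 leans on saline replicate 4, at 3.81, and was 1.17 without it. Chordc1, another Hsp90 partner, had 11.86, 11.53, 11.48 and 11.38 in EIH blood, against 10.73, 11.17, 11.16 and 10.83 in saline blood. Its groups did not overlap, and its difference was 0.59 ± 0.33. Ahsa2, a relative of the Hsp90 ATPase activator, differed by 0.95 ± 0.45 with overlapping groups.

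The classical heat markers of the Hsp70 and small heat shock protein families were not called. Hspa1b, the inducible Hsp70, had values of 12.21, 9.73, 11.17 and 11.59 in EIH blood, against 8.48, 12.67, 10.07 and 9.54 in saline blood. The highest value of all 8 was saline replicate 2. Over all arrays the difference was 0.98 ± 0.99 (95% interval -1.09 to 3.06, adjusted p = 0.753, limma), and a dimmer second probe gave a difference of -0.71 ± 1.09 (SE). Hspa1b has near-identical relatives, and the probe may also read these.
Hspb1, the small heat shock protein Hsp27, had 7.72, 7.57, 7.89 and 7.86 in EIH blood, against 7.42, 9.55, 8.12 and 7.34 in saline blood, again with saline replicate 2 highest (difference -0.34 ± 0.69, 95% interval -1.77 to 1.08). Zfand2a, a heat-induced zinc finger protein that acts with the proteasome, had 7.23, 6.45, 7.12 and 7.49 in EIH blood, against 6.52, 8.46, 7.07 and 6.36 in saline blood (difference -0.03 ± 0.78). Saline replicate 2 was thus the highest saline array for Hspa1b, Hspb1 and Zfand2a as well as for Hsph1 and Hsp90aa1, and without it the differences were 1.81 for Hspa1b (adjusted p = 0.459, limma), 0.14 for Hspb1 and 0.42 for Zfand2a. The Hspa1b difference was 0.41 without saline replicate 1, so its size depends on single saline arrays.
The mitochondrial chaperonins Hspd1 and Hspe1 differed by 0.59 ± 0.60 and 0.11 ± 0.45, Bag3, a cochaperone of Hsp70 in selective autophagy, by 0.61 ± 0.51, and Serpinh1, the collagen chaperone of the endoplasmic reticulum, by -0.57 ± 0.40. Hmox1, heme oxygenase 1, had 9.48, 9.10, 9.15 and 9.12 in EIH blood, against 8.96, 9.39, 8.98 and 8.92 in saline blood (difference 0.15 ± 0.43). None of these 5 passed the adjusted test, and their intervals included 0.

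The same EIH minus saline difference in the blood of other rats at 3 h shows which chaperones were still apart from saline at 1 day. The arrays of the 2 times appear to have been scaled in separate sets, so levels are compared only within a time, and the test is on the difference of the differences (1 day minus 3 h). At 3 h, 20 of 38 chaperone genes tested were called higher, against 5.54% of all genes tested, and 2 lower, against 6.91%. The list's median difference was 1.47 at 3 h and 0.48 at 1 day. The effect differed between the times for 8 of 38, against 8.62% of all genes tested. It was lower at 1 day for 7 of the 8, against 3.8% of all genes, and higher for 1, against 4.82%. The 1 higher gene was Hspa14, an Hsp70 relative at the ribosome (-0.62 at 3 h and 0.34 at 1 day), which with Hsf1 (-0.62 at 3 h) made up the 2 called lower at 3 h.
Hspa1b had 14.37, 15.94, 15.99 and 15.98 in EIH blood at 3 h, against 6.07, 11.98, 8.09 and 7.51 in saline blood at 3 h, and 3 of these EIH arrays stood at the top of the scanner's range. Its measured difference of 7.16 at 3 h is therefore a lower bound, as is the size of the change to 0.98 at 1 day (measured change -6.18 ± 1.41, adjusted p = 0.0135, limma). Zfand2a differed by 5.59 at 3 h and -0.03 at 1 day (change -5.62 ± 1.11, adjusted p = 0.0076, limma), and Hspb1 by 4.17 at 3 h and -0.34 at 1 day (change -4.51 ± 0.97, adjusted p = 0.00985, limma). The change was called as well for Hspd1 (-3.07), Hspe1 (-2.64), Dnaja1 (-2.25) and Serpinh1 (-1.95), with limma adjusted p-values between 0.00463 and 0.0373. Hmox1, which is not on the chaperone list, changed by -2.67 (adjusted p = 0.0134, limma).
For the 4 chaperones called at 1 day, the change between the times did not pass the test. They were chosen by their 1 day difference, which is part of this change, so the choice favours a small fall between the times. Dnajb1 differed by 2.94 at 3 h and 2.68 at 1 day, a change of -0.26 ± 0.62 (95% interval -1.55 to 1.04, adjusted p = 0.852, limma). Dnaja4 differed by 0.80 at 3 h and 1.19 at 1 day (change 0.39 ± 0.30, 95% interval -0.23 to 1.01). Hsp90aa1 differed by 4.69 at 3 h and 3.31 at 1 day (change 95% interval -3.12 to 0.35), and Hsph1 by 6.24 and 3.62 (change 95% interval -4.42 to -0.82, adjusted p = 0.0635, limma). The Hsph1 interval, which is not adjusted, lies wholly below 0. A missed threshold does not show that the times were alike. The 1 day minus 3 h value was -0.32 ± 0.60 for Fkbp4, -0.60 ± 0.62 for Cacybp, -0.80 ± 0.43 for Hspa8, -0.62 ± 0.65 for Hsp90ab1, -0.94 ± 0.92 for Stip1 and -2.29 ± 0.72 for Bag3, none of them past the adjusted test. Ap2a1 differed by 0.49 at 3 h and -1.26 at 1 day, and its change of -1.75 ± 0.28 was called (adjusted p = 0.00309, limma). Ap2a1 too was picked by its 1 day difference, which favours such a call.

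**Figure D2:**
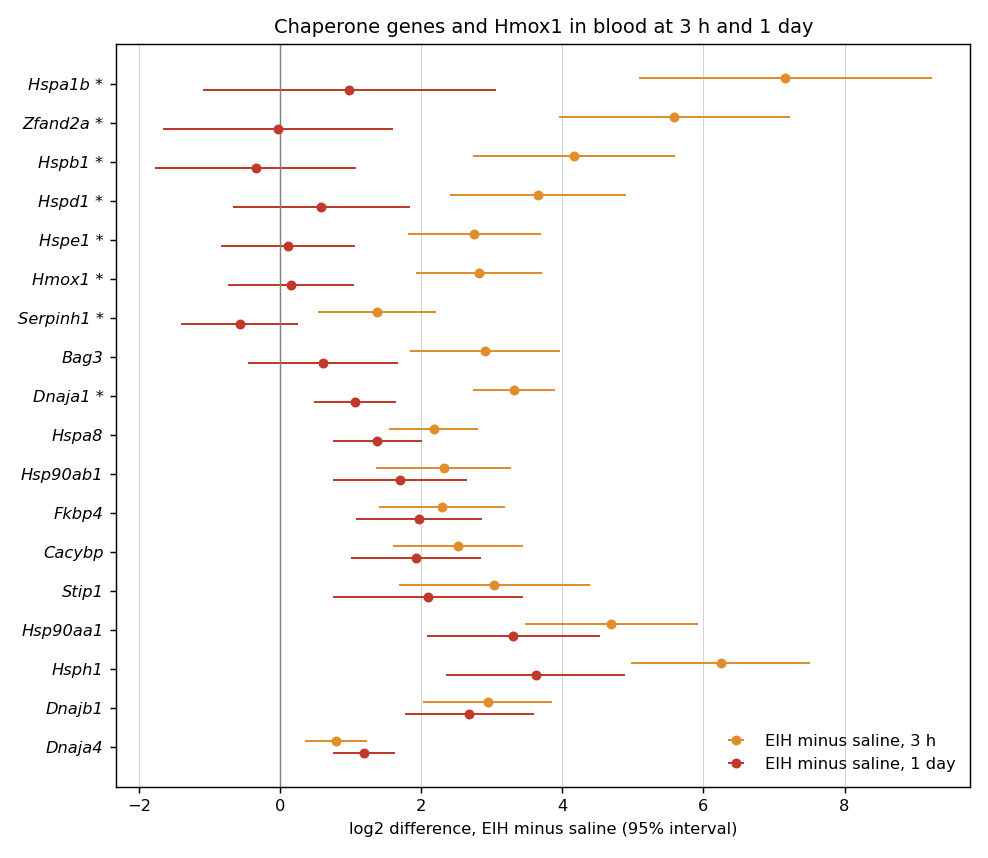
Log2 difference, EIH minus saline, of 18 stress genes in blood at 3 h (orange) and 1 day (red) with 95% intervals; an asterisk marks genes whose difference changed between the times at an adjusted p under 0.05. Hspa1b, Zfand2a and Hspb1 lie far from 0 at 3 h and their 1 day intervals include 0, whereas Dnajb1 lies at 2.94 at 3 h and 2.68 at 1 day, and Dnaja4 at 0.80 and 1.19. Dnajb1 and Dnaja4 are among the genes called at 1 day, a choice that favours a large 1 day difference.

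The blood of amphetamine-treated rats at 1 day was compared with the same 4 saline arrays, so the values of both treatments are given side by side and share whatever is particular to those arrays. Of the chaperone list, 7 of 39 genes were called higher after AMPH, against 1.55% of all genes tested. Dnajb1 differed from saline by 2.68 after EIH and 2.44 after AMPH, Hsph1 by 3.62 after EIH and 3.60 after AMPH, and Hsp90aa1 by 3.31 after EIH and 2.88 after AMPH. Dnaja4 differed by 1.19 after EIH and 1.37 after AMPH, and Ap2a1 by -1.26 after EIH and -0.72 after AMPH.
The direct comparison of EIH with AMPH blood does not use the saline arrays. It called 0 of 9848 genes (0%) in limma, with 1149 at an unadjusted p under 0.05. EIH minus AMPH was 0.25 for Dnajb1 (95% interval -0.67 to 1.16), 0.02 for Hsph1 (-1.25 to 1.29), 0.42 for Hsp90aa1 (-0.80 to 1.65) and -0.18 for Dnaja4 (-0.62 to 0.26). The Hsph1 interval spans more than 1 log2 unit on either side of 0.

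Beyond the chaperones, the next genes on the higher side missed the adjusted threshold. They are those of smallest p among genes picked because every EIH array lay above every saline array. The lower side was picked in the same way, with every EIH array below. Tsnax, a partner of the nucleic acid binding protein translin, had 8.46, 8.08, 8.60 and 8.42 in EIH blood, against 6.87, 7.14, 7.17 and 6.85 in saline blood, a difference of 1.38 ± 0.26 (adjusted p = 0.0513, limma). At 3 h Tsnax had differed by -1.05, and the change between times was called (2.43 ± 0.37, adjusted p = 0.00255, limma). The 1 day difference, by which Tsnax was picked, is part of that change and favours such a call.
Ccne1, cyclin E1 of the entry into S phase, had 10.28, 9.15, 9.23 and 9.29 in EIH blood, against 7.49, 6.81, 7.17 and 6.03 in saline blood (difference 2.61 ± 0.52, adjusted p = 0.063, limma), while a dimmer second probe gave 0.69 ± 0.64 (SE). Of 63 cell cycle genes tested, 0 were called, against 0.041% of all genes called higher and 0.0102% lower. Oprd1, the delta opioid receptor, had 10.79, 11.40, 10.94 and 11.18 in EIH blood, against 10.22, 9.60, 10.16 and 8.69 in saline blood (difference 1.41 ± 0.29, adjusted p = 0.0722, limma).
Csf2rb, the shared beta chain of the receptors for GM-CSF, IL-3 and IL-5, was dim throughout, with 7.62, 7.67, 5.50 and 6.27 in EIH blood, against 5.20, 3.56, 4.66 and 3.81 in saline blood (difference 2.46 ± 0.54). Sned1, an extracellular matrix glycoprotein, had 10.85, 11.43, 10.62 and 10.67 in EIH blood, against 9.70, 9.77, 9.83 and 7.57 in saline blood (difference 1.67 ± 0.38). Another probe of Sned1 gave a difference of -2.75 ± 1.17 (SE), so its probes disagree.
On the lower side, Limd1, a LIM domain protein, had 10.87, 10.92, 10.31 and 10.13 in EIH blood, against 11.50, 11.46, 11.88 and 11.39 in saline blood (difference -0.998 ± 0.19, adjusted p = 0.0513, limma). Cyp4a2, a fatty acid omega-hydroxylase, had 9.13, 9.18, 8.64 and 8.38 in EIH blood, against 10.11, 9.997, 9.79 and 9.94 in saline blood (difference -1.13 ± 0.22, adjusted p = 0.0513, limma). After AMPH Cyp4a2 differed from saline by -0.12, and EIH minus AMPH was -1.01 (adjusted p = 0.11, limma). Artn, the neurotrophic ligand artemin, had 10.30, 10.53, 10.05 and 10.05 in EIH blood, against 11.26, 11.20, 10.95 and 11.37 in saline blood.
The remaining 8 of the 12 lowest by this rule were Spetex2f (-2.80), Trim42 (-1.25), Lmx1a (-2.48), Adra2b (-1.26), Tmem86a (-1.03), Aox3 (-1.97), Apba2 (-2.03) and Ccnb3 (-1.37). Several of these genes, among them Lmx1a, Apba2 and Aox3, lay below 6 in log2 on every EIH array, in the range where many genes share a value. Lmx1a and Apba2 both stood at 5.50 on EIH replicate 3 and both at 6.85 on saline replicate 4. The change between the times was called for 7 of these 8, all lower at 1 day, with -2.39 for Adra2b, -2.15 for Trim42, -3.16 for Spetex2f, -3.09 for Lmx1a, -1.53 for Tmem86a, -3.03 for Aox3 and -1.83 for Ccnb3 (adjusted p 0.00407 to 0.0221, limma). It was called as well for Limd1 (-1.35), Cyp4a2 (-1.32) and Artn (-1.33). All of these genes were picked for a low 1 day difference. That difference is part of the tested change, so calls on the lower side were favoured in advance. Of all genes tested, 3.8% were called lower at 1 day.

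Of the leukocyte lists, that of NK and cytotoxic lymphocytes, which kill infected or transformed cells through granzymes and perforin, had the lowest median difference (-0.56, against 0.067 for all genes). Of its 34 genes 0 were called, against 0.041% of all genes called higher and 0.0102% lower. In EIH blood 26 were lower and 8 higher. At an unadjusted p under 0.05, 5 were on the lower side, against 4.68% of all genes, and 0 on the higher side, against 5.43%. Without saline replicate 4 the median was -0.62 with 6 on the lower side.
Nkg7, a granule protein of NK and cytotoxic T cells, had 9.38, 10.16, 8.76 and 8.71 in EIH blood, against 10.29, 11.21, 10.77 and 10.44 in saline blood, without overlap (difference -1.43 ± 0.46, adjusted p = 0.333, limma). Gzma, granzyme A, had 8.83, 10.92, 8.55 and 8.07 in EIH blood, against 11.19, 11.30, 10.42 and 11.33 in saline blood (difference -1.97 ± 0.66). EIH replicate 2 was the exception, within the saline range. Gzmk, granzyme K, had 8.29, 10.58, 8.35 and 8.93 in EIH blood, against 10.54, 10.50, 10.54 and 11.36 in saline blood, with the same array high (difference -1.70 ± 0.61).
Gzmb, granzyme B, differed by -1.42 ± 0.62, Klra5, an NK receptor of the Ly49 family, by -0.77 ± 0.29, Prf1, perforin, by -0.62 ± 0.49 and Klrd1, CD94 of NK receptors, by -0.68 ± 0.50. EIH replicate 2 was the highest EIH array for Gzmb, Prf1 and Klrd1 too. None passed the adjusted test. At 3 h the list's median was -0.68, with 6 genes called lower (6.91% of all genes tested). The effect differed between the times for 0 of 34, against 8.62% of all genes tested. The genes named above did not all fall at 3 h. Gzmb had 9.03, 10.68, 9.59 and 9.33 in EIH blood of 3 h, against 8.02, 8.81, 8.97 and 8.96 in saline blood. Nkg7 lay at 10.51 to 11.18 against 10.32 to 11.34, and Klrd1 at 7.01 to 9.81 against 10.34 to 10.85. The Gzmb change ran from -2.91 to -1.88 over the alternatives and was called in 2 of 19.

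**Figure D3:**
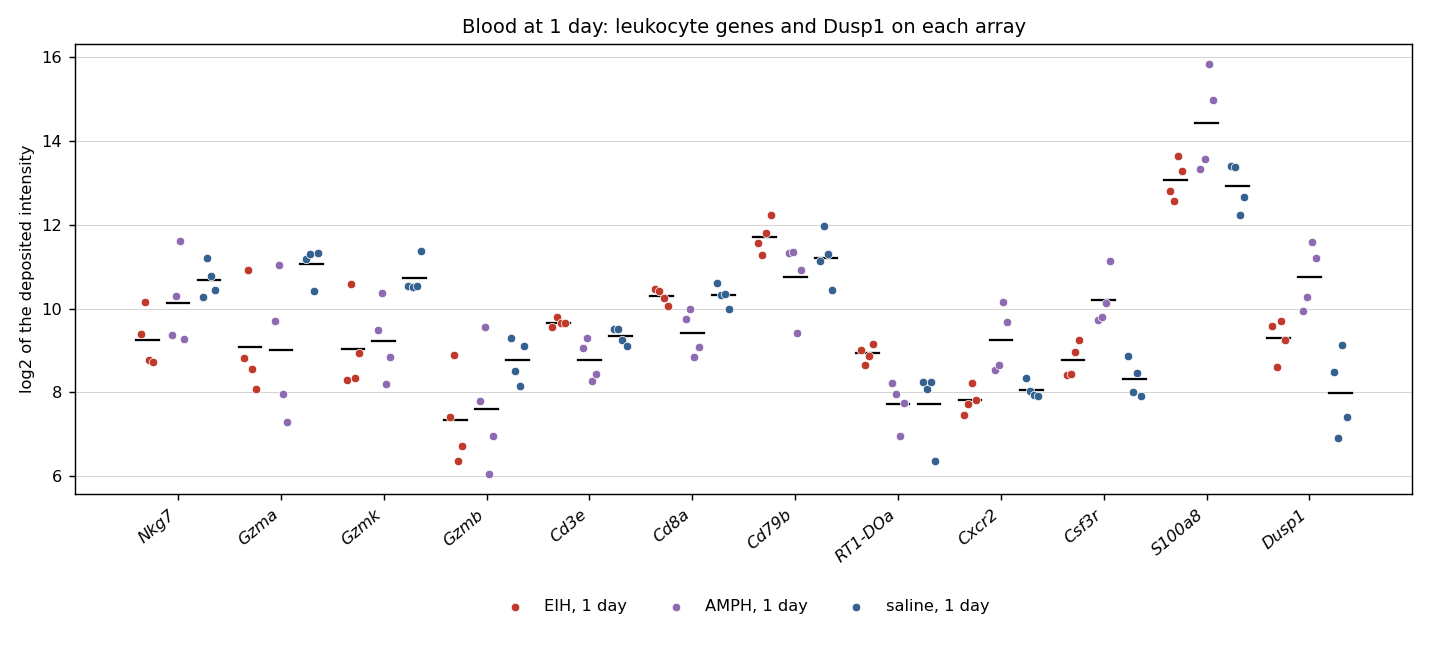
Log2 of the deposited intensity of 11 leukocyte genes and Dusp1 on the EIH, AMPH and saline blood arrays of 1 day, 4 arrays a group; points are arrays and bars are group means. For Nkg7, Gzma, Gzmk and Gzmb at least 3 of the 4 EIH points lie below the saline points, and for Csf3r and Cxcr2 every AMPH point lies above every EIH point.

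No T cell gene was called at 1 day, whereas many were lower at 3 h. Of 31 genes tested 0 were called, against 0.041% of all genes called higher and 0.0102% lower. A count of 0 at 1 day, here and in the other lists, is near those shares and does not show that a list was unchanged. The median difference was -0.001. At 3 h 16 of 30 had been called lower, against 6.91% of all genes. The effect differed between the times for 7 of 30, all higher at 1 day, against 4.82% of all genes. Cd3e, a subunit of the T cell receptor complex, had 9.55, 9.80, 9.65 and 9.65 in EIH blood, against 9.52, 9.52, 9.24 and 9.10 in saline blood at 1 day. Its EIH minus saline difference was -2.04 at 3 h and 0.32 at 1 day (change 2.36 ± 0.56, adjusted p = 0.017, limma). Cd8a, the coreceptor of cytotoxic T cells, differed by -2.23 at 3 h and -0.02 at 1 day (change 2.21 ± 0.42, adjusted p = 0.0063, limma). Cd4, the helper T cell coreceptor, was dim and differed by -0.04 ± 0.58 at 1 day.
All 18 B cell genes tested had a positive difference, with a median of 0.46, and 0 were called; 3 stood on the higher side at an unadjusted p under 0.05, against 5.43% of all genes. Without saline replicate 4, which had the lowest B cell level of the 8 arrays (8.23), the median was 0.20 and 0 stood there. Blnk, a B cell signalling adaptor, had 9.65, 9.30, 9.99 and 10.55 in EIH blood, against 9.27, 9.57, 8.89 and 5.54 in saline blood, so that its difference of 1.55 ± 0.63 rests on that array. Cd22 showed the same, with 9.63, 9.26, 9.61 and 9.71 in EIH blood, against 8.92, 9.02, 9.31 and 5.06 in saline blood. Cd79b, a B cell receptor subunit, differed by -1.67 at 3 h and 0.51 at 1 day (change 2.18 ± 0.51, adjusted p = 0.0151, limma), and Ms4a1, CD20, by 0.21 ± 0.42 at 1 day.
MHC class II genes, which present antigen to helper T cells, had positive differences in 15 of 16, a median of 0.39 (0.36 without saline replicate 4), 0 calls and 4 genes on the higher side at an unadjusted p under 0.05, against 5.43% of all genes. RT1-DOa, the alpha chain of the rat DO molecule, had 9.01, 8.66, 8.87 and 9.16 in EIH blood, against 8.25, 8.07, 8.24 and 6.36 in saline blood, without overlap (difference 1.20 ± 0.42, adjusted p = 0.376, limma; 0.74 without saline replicate 4). Its partner RT1-DOb differed by 0.70 ± 0.32, Cd86, a costimulatory ligand, by 1.29 ± 0.51 (3 saline arrays), Lgmn, a lysosomal protease, by 0.67 ± 0.27 and Cd74, the invariant chain, by 0.48 ± 0.98. On AMPH replicate 4 of 1 day Cd74 stood at 6.965, and that array counts in its standard error. At 3 h 6 of 15 had been called lower, against 6.91% of all genes, and the effect was higher at 1 day for 6 of 15 by the test of the change, against 4.82%. Among these RT1-Da, a class II alpha chain, differed by -1.93 at 3 h and 0.35 at 1 day (change 2.28 ± 0.50, adjusted p = 0.0108, limma), and RT1-DOa by -1.38 and 1.20 (change 2.58 ± 0.60, adjusted p = 0.0148, limma).

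No neutrophil or monocyte gene was called at 1 day, when 0.041% of all genes were called higher and 0.0102% lower. Of 39 neutrophil genes tested 0 were called and the median difference was -0.07, whereas 19 of 39 had been called higher at 3 h, against 5.54% of all genes, and the effect was lower at 1 day for 10 of 38, against 3.8% of all genes. Cxcr2, the receptor for neutrophil chemokines, had 7.47, 7.73, 8.22 and 7.82 in EIH blood, against 8.33, 8.04, 7.92 and 7.90 in saline blood. Its difference was 1.35 at 3 h and -0.24 at 1 day (change -1.59 ± 0.44, adjusted p = 0.0314, limma). Csf3r, the G-CSF receptor, had 8.41, 8.44, 8.96 and 9.24 in EIH blood, against 8.87, 8.01, 8.46 and 7.90 in saline blood (difference 0.45 ± 0.33). AMPH blood differed from saline by 1.89 for Csf3r and 1.20 for Cxcr2, and EIH minus AMPH was -1.43 (95% interval -2.12 to -0.75, adjusted p = 0.117) and -1.45 (95% interval -2.10 to -0.80, adjusted p = 0.11) by limma.
S100a8, a calprotectin subunit abundant in neutrophils, had 12.81, 12.58, 13.64 and 13.29 in EIH blood, against 13.42, 13.38, 12.24 and 12.67 in saline blood (difference 0.15 ± 0.41). Its partner S100a9 had 13.03, 12.61, 7.29 and 13.40 in EIH blood, against 13.60, 13.37, 6.59 and 13.77 in saline blood. Replicate 3 of both groups lay far below the rest of its group, a drop that S100a8 did not share. The third array in accession order was also the lowest for S100a9 in the other blood groups, at 8.58 in EIH blood at 3 h, 10.13 in saline blood at 3 h, 9.33 in AMPH blood at 1 day and 14.55 in AMPH blood at 3 h. S100a9 is therefore not read as a level on these arrays, and the cause was not tested.
Of 30 monocyte and macrophage genes 0 were called, with 3 on the higher side and 1 on the lower at an unadjusted p under 0.05, against 5.43% and 4.68% of all genes, and 0 on either side without saline replicate 4. Cx3cr1, the fractalkine receptor, differed by 1.28 ± 0.49, Ccr2, the receptor for Ccl2, by 1.22 ± 0.56, Csf1r, the M-CSF receptor, by 0.58 ± 0.28 and C1qb, a complement C1q chain, by -0.60 ± 0.28. The Cx3cr1 difference was 0.78 and the Ccr2 difference 0.71 without saline replicate 4. Cd14, the coreceptor for lipopolysaccharide, had 9.17, 8.68, 9.89 and 9.88 in EIH blood, against 9.63, 10.21, 9.01 and 8.49 in saline blood, and its difference was 2.85 at 3 h and 0.07 at 1 day (change -2.77 ± 0.84, adjusted p = 0.043, limma). Il1b, interleukin 1 beta, differed by 1.65 at 3 h and -0.03 at 1 day (change -1.68 ± 0.37, adjusted p = 0.0119, limma). Of 44 cytokine and mediator genes 0 were called at 1 day, against 0.041% of all genes called higher and 0.0102% lower.

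Interferon-induced genes were measured by 51 genes, of which 0 were called, 5 stood on the lower side at an unadjusted p under 0.05, against 4.68% of all genes, and 0 on the higher, against 5.43%. Rsad2, viperin, an antiviral enzyme, had 14.69, 15.01, 13.83 and 13.82 in EIH blood, against 15.30, 15.37, 15.23 and 15.32 in saline blood, without overlap (difference -0.97 ± 0.28, adjusted p = 0.256, limma). Isg20, an antiviral exonuclease, differed by -0.52 ± 0.19, Igtp, an interferon-induced GTPase, by -0.74 ± 0.32 and Irf7, a transcription factor of the type I interferon response, by -0.33 ± 0.31. Mx1, an antiviral GTPase, differed by -2.35 at 3 h and 0.22 at 1 day (change 2.57 ± 0.72, adjusted p = 0.032, limma).
Erythroid and platelet genes showed no call among 41 and 22 tested, against 0.041% of all genes called higher and 0.0102% lower. Alas2, the erythroid enzyme that starts heme synthesis, stood at 15.97 to 15.98 in EIH blood and 15.98 to 15.99 in saline blood, at the top of the scanner's range, where no difference can be seen. Slc4a1, the anion exchanger of red cells, differed by 0.11 ± 0.21 and Tfrc, the transferrin receptor, by 0.23 ± 0.33. A dimmer second probe of Slc4a1 gave 0.58 ± 0.22 (SE). Pf4, platelet factor 4, was also near the top of the range (15.28 to 15.81 in EIH blood and 15.48 to 15.93 in saline blood). Gp1bb, a subunit of the platelet von Willebrand factor receptor, had 14.10, 14.67, 14.43 and 14.40 in EIH blood, against 15.01, 14.99, 14.86 and 15.12 in saline blood, without overlap (difference -0.59 ± 0.21, adjusted p = 0.376, limma), while Itgb3, integrin beta 3 of platelets, differed by 1.91 ± 0.58 (3 EIH arrays). The Itgb3 groups overlapped, and its difference was 1.28 without saline replicate 4.

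No gene of the stress and metabolic lists that follow was called, against 0.041% of all genes called higher and 0.0102% lower. Of 24 endoplasmic reticulum stress genes 20 had a positive difference, with a median of 0.31 and 5 on the higher side at an unadjusted p under 0.05, against 5.43% of all genes. Without saline replicate 4 the median was 0.11 and 1 gene stood there, against 2.68% of all genes. Hsp90b1, the Hsp90 of the endoplasmic reticulum, had 11.07, 10.99, 11.21 and 11.98 in EIH blood, against 10.76, 10.74, 10.77 and 10.20 in saline blood (difference 0.70 ± 0.25). Pdia6 and Pdia3, protein disulfide isomerases, differed by 0.66 ± 0.27 and 0.84 ± 0.35. The Pdia3 difference was 0.38 without saline replicate 4.
Of 30 glucocorticoid response genes 3 stood on the higher side and 0 on the lower at an unadjusted p under 0.05, against 5.43% and 4.68% of all genes. Dusp1, a phosphatase that turns off MAP kinases, had 9.58, 8.61, 9.71 and 9.24 in EIH blood, against 8.47, 6.90, 9.13 and 7.42 in saline blood (difference 1.30 ± 0.42, adjusted p = 0.328, limma). After AMPH it differed from saline by 2.78. Sgk1, a serum and glucocorticoid regulated kinase, differed by 1.16 ± 0.41 after EIH and 2.03 after AMPH, and Angptl4, an inhibitor of lipoprotein lipase, by 1.19 ± 0.50 after EIH and 1.97 after AMPH. Without saline replicate 4 the EIH differences of Sgk1 and Angptl4 were 0.57 and 0.76. The classical targets Fkbp5, Tsc22d3 and Per1 differed by -0.17 ± 0.34, 0.42 ± 0.31 and -0.30 ± 0.40. Dimmer probes gave 0.53 and 0.42 for Fkbp5 and 0.99 ± 0.37 (SE) for Tsc22d3, so their differences depend on the probe. Klf2, a transcription factor of lymphocyte quiescence, differed by -1.02 at 3 h and 0.72 ± 0.24 at 1 day (change 1.74 ± 0.34, adjusted p = 0.00769, limma).
Among 31 hypoxia and glycolysis genes, P4ha1, a collagen prolyl hydroxylase subunit, differed by 1.43 ± 0.48, Pdk1, a kinase that restrains pyruvate dehydrogenase, by 1.11 ± 0.45 (3 saline arrays) and Pfkl, a phosphofructokinase subunit, by -0.76 ± 0.23. The P4ha1 difference was 0.69 without saline replicate 4. Of 24 cholesterol genes 4 stood on the higher side at an unadjusted p under 0.05, against 5.43% of all genes, among them Sqle, squalene epoxidase (1.45 ± 0.52), and Hsd17b7 (1.62 ± 0.63, 3 saline arrays). In the fit without saline replicate 4, 2 did, against 2.68%. Fabp3, a fatty acid binding protein, differed by -3.01 ± 0.68, with values on only 2 saline arrays.

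**Figure D4:**
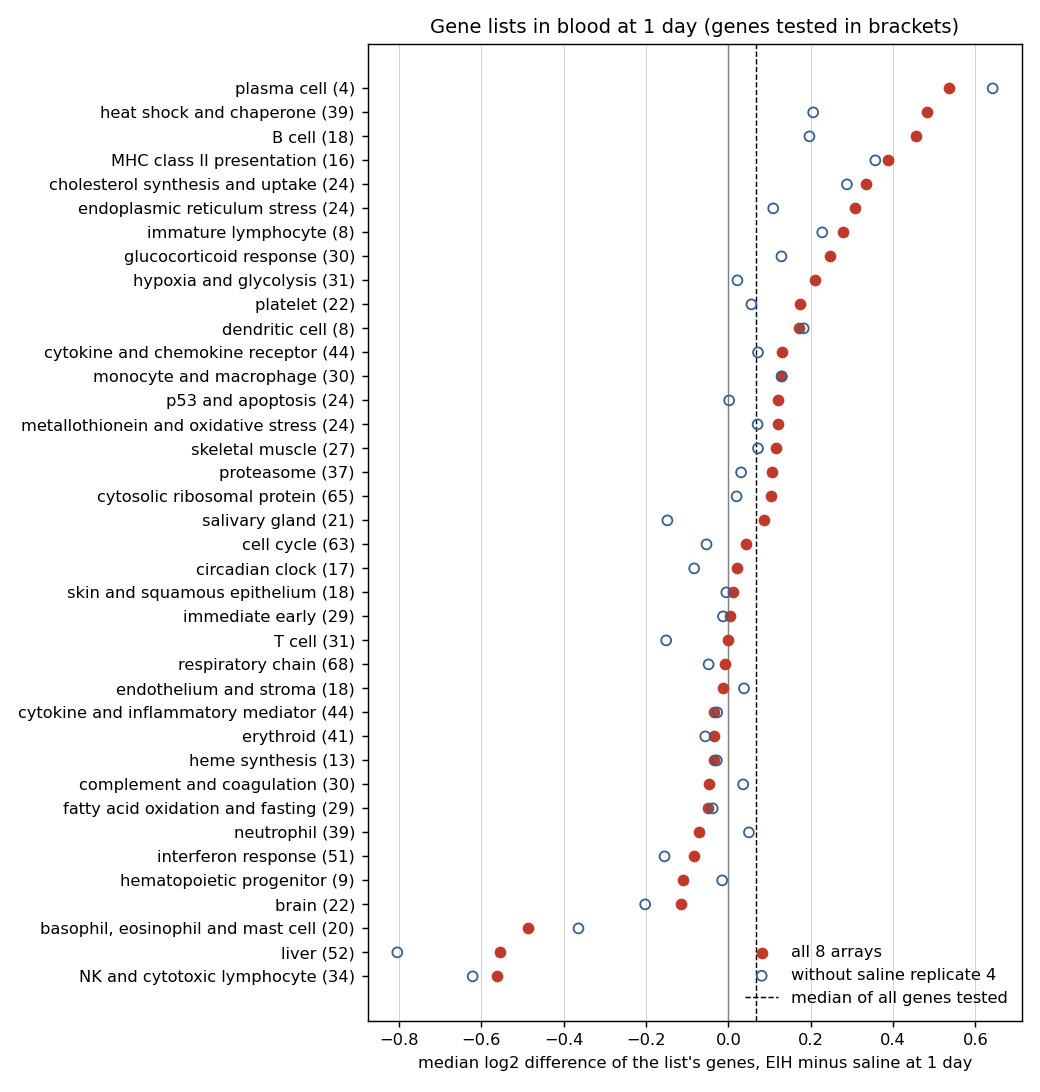
Median log2 difference, EIH minus saline at 1 day, of the genes of each of 38 lists over all 8 arrays (filled) and without saline replicate 4 (open); the dashed line is the median of all 9762 genes tested, 0.067. Among lists of at least 10 genes the chaperone list has the highest median over all arrays (0.48) and the NK and cytotoxic list the lowest (-0.56), but without saline replicate 4 the order differs, with MHC class II (0.36) and cholesterol (0.29) above the chaperone list (0.21) and liver (-0.80) below the NK and cytotoxic list (-0.62).

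Genes of tissues that blood taken at decapitation can carry were read in the same way, and their part in the results above was not tested. Of 52 liver genes tested 37 had a negative difference, with a median of -0.56 (-0.80 without saline replicate 4) and 0 calls. Alb, serum albumin, had 4.80, 6.59, 9.90 and 9.87 in EIH blood, against 7.59, 12.77, 9.92 and 7.73 in saline blood, and saline replicate 2 was the highest of the 8. That array also had the highest mean of the 31 liver genes measured on all blood arrays, 8.29, against 6.57 to 7.20 in EIH blood and 6.84 to 7.01 on the other saline arrays. The 12 salivary gland genes so measured had a mean of 9.13 to 10.65 in EIH blood and 8.86 to 10.73 in saline blood, and the 12 skeletal muscle genes 8.37 to 9.38 in EIH blood and 8.55 to 8.97 in saline blood. Acta1, skeletal muscle actin, had 7.52, 7.38, 7.07 and 7.21 in EIH blood, against 6.30, 6.98 and 5.12 in saline blood (3 arrays). Without the genes of liver, salivary gland, muscle and squamous epithelium, 8 genes were called in the EIH comparison.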

How the data were processed

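Agilent single-colour arrays of blood and choroid plexus were used as the authors deposited them, in 1 table of intensity values on a linear scale for 14055 probes and 44 arrays. Per the labels' protocols, total RNA (Tri Reagent) was converted to Cy3-labelled cRNA. How the deposited intensity values were background-corrected and normalized is not given in the sources used here. The 24 arrays of 3 h share nearly the same quantiles, as do the 20 of 1 day, with a shift from one set to the other. Log2 was taken (a floor of 1 changed no value) and blanks stayed missing.

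The platform annotation gave a single symbol to 12926 probes, several to 0 and none to 1129. Symbols were updated by accession for 11472 probes. Of 10412 genes, 2210 had several probes, and the one with the highest mean over 44 arrays stood for the gene.

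Limma (version 3.58.1, R 4.3.3) fitted a mean per group over the 24 blood arrays. A gene was tested with at least 2 values in each group compared. P-values were Benjamini-Hochberg adjusted over all genes of a comparison. The steps were tested on simulated data. The members, gene lists and rules were chosen with earlier results of these data known. Named genes were, among those without overlap and with at least 3 values a group, the 12 called or of smallest p on each side, leaving out predicted loci. Added were up to 4 genes of each list with 3 or more members called or at an unadjusted p under 0.05, the 6 with the largest called change between times, and a fixed set of markers, some of which are not reported here; chaperones outside the rule were chosen after their values were seen. The text prints a part of these. The heat shock element core was chosen as the textbook motif. Figures were drawn with matplotlib 3.10.9. Precision is limited by the number of arrays. Replicates were numbered in accession order.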

Additional observations from a re-analysis of the deposited data

Results flagged for a closer look

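Of 188 groups of 4 values looked at for the named genes, 22 held a value set apart from the other 3 by Dixon's test, where chance gives about 1 in 20. Saline replicate 4 supplied 9 of them. It was low for Hspa8 (10.67), Sned1 (7.57), Blnk (5.54), Cd22 (5.06), RT1-DOa (6.36), Csf1r (9.04), Hsp90b1 (10.20) and Sqle (4.47), and high for Gzmk (11.36). The differences of Blnk, Cd22 and Sqle without that array were 0.63, 0.47 and 0.71, against 1.55, 1.48 and 1.45 over all arrays.

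Among EIH arrays, replicate 1 was high for Hsp90aa1 (14.39), Hmox1 (9.48) and Ccne1 (10.28) and low for Pf4 (15.28). Replicate 2 was low for Bag3 (10.002) and high for Prf1 (10.83) and Cd86 (7.30). Replicate 3 was low for S100a9 (7.29) and apart for Alas2 (15.98), where all values lie within the last digits of a saturated range. Among saline arrays, replicate 2 was high for Hmox1 (9.39), and replicate 3 was high for Aox3 (8.10) and low for Gzma (10.42) and S100a9 (6.59).

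The EIH minus saline difference changed between 3 h and 1 day at an adjusted p under 0.05 (limma) for 37 named genes. Of all genes tested, 8.62% were called so. Many named genes were picked by their 1 day difference, which is part of the change, so the choice favours such calls. Among stress genes it was lower at 1 day for Zfand2a (-5.62), Hspb1 (-4.51), Hspd1 (-3.07), Hmox1 (-2.67), Hspe1 (-2.64), Dnaja1 (-2.25) and Serpinh1 (-1.95), and higher for Hspa14 (0.96). For Hspa1b the measured change of -6.18 is a lower bound in size, since 3 of its 4 EIH values at 3 h stood at the top of the scanner's range. Among leukocyte and interferon genes it was lower at 1 day for Cd14 (-2.77), Igtp (-1.83), C1qb (-1.73), Il1b (-1.68) and Cxcr2 (-1.59), and higher for RT1-DOa (2.58), Mx1 (2.57), Cd3e (2.36), RT1-Da (2.28), Cd8a (2.21), Cd79b (2.18), RT1-DOb (1.94) and Klf2 (1.74). Of the other genes, it was higher at 1 day for Tsnax (2.43) and Ccne1 (2.41). It was lower for Fabp3 (-4.36, 2 saline arrays), Spetex2f (-3.16), Lmx1a (-3.09), Aox3 (-3.03), Adra2b (-2.39), Trim42 (-2.15), Ccnb3 (-1.83), Ap2a1 (-1.75), Tmem86a (-1.53), Limd1 (-1.35), Artn (-1.33), Cyp4a2 (-1.32) and Pfkl (-1.10). The arrays of the 2 times appear to have been scaled in separate sets. Their blood arrays carry different rat numbers.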

How the results depend on the processing

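Of 110 values of the 5 called genes under the alternatives, 110 kept their direction and 59 stayed past the threshold. The list of chaperones kept a median between 0.206 and 0.669. The count of 5 calls was 13 without the 25% of genes of lowest mean and with genes measured on all 24 blood arrays, 10 after quantile normalization, 8 with arrays shifted to the same median, with a floor of 16 and without the genes of other tissues, 9 at the same 75th percentile, 16 with an intensity trend and robust prior, and 81 with array weights (31 higher and 50 lower). It was 0 in a fit over the 8 arrays alone, in a plain equal-variance test and without both arrays whose rat number is listed at another time. Leaving out 1 array gave 0 to 6 (0 for EIH replicates 3 and 4 and for saline replicates 1, 3 and 4).

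At 3 h array weights gave 1930 calls against 1232. The 817 changes between times became 1591 with array weights and 440 without both arrays whose rat number is listed at another time. They became 427 to 836 with 1 array left out (lowest without EIH replicate 4, and 524 without EIH replicate 3). The 191 AMPH calls became 359 without low genes, 375 with the trend, 2 over the 12 arrays of 1 day, 1 in the plain test, 401 on genes measured everywhere, and 65 to 375 with 1 array left out (lowest without saline replicate 4, 94 without saline replicate 3, highest without saline replicate 1). EIH minus AMPH gave 62 calls with the trend, 50 with array weights and 2 on genes measured everywhere, against 0. The cause of these shifts was not tested.

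Uncalled genes near 0 changed sign. With 1 array left out, differences ran from -0.602 to 0.135 for Hspb1, -0.278 to 0.423 for Zfand2a, -0.127 to 0.078 for Cd8a, -0.523 to 0.326 for Cd4, -0.075 to 0.322 for S100a8, -1.997 to 1.182 for S100a9, -0.212 to 0.363 for Cd14, -0.189 to 0.124 for Il1b, -0.353 to 0.163 for Fkbp5, -0.004 to 0.001 for Alas2 and -0.191 to 0.033 for Pf4. Without both arrays whose rat number is listed at another time, Cd8a had 0.096, Cd4 0.003, S100a9 1.77 and Fkbp5 0.037. Array weights gave Cd4 0.563, Cd14 -0.088, Il1b 0.25, Mx1 -0.114 and Pf4 0.024. Cd14 had -0.013 with equal medians and Fkbp5 0.26 as the mean over its probes.

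No paired analysis was possible because replicate numbers were given in accession order and the labels pair no rats. Dim genes, whose values are tied on each array, and genes at the top of the range have little resolution.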
